A study of Mus musculus with 2 samples.

Results

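Heat shock proteins and their co-chaperones were followed in brain tissue of the lipopolysaccharide (LPS) model. The genes were chosen by symbol alone, from the Hspa to Hsph, Hsp90, Dnaja, Dnajb, Dnajc, Cct and Bag series, and 74 of the 13381 protein-coding genes with values matched. They carried 73 symbols, because Hspa14 was listed under 2 identifiers. Hspg2 matched by its name only. It encodes perlecan, a proteoglycan of basement membranes, and was kept apart from the chaperone families. Hspa1a, Hspa1b and Cct6a fit these series by name but were not among the 74 genes matched, so they were not analysed here.

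Chaperones bind unfolded or partly folded proteins and help them to reach or regain their shape. Hsp70 proteins do so in cycles of ATP binding and hydrolysis. J-domain proteins, encoded by the Dnaja, Dnajb and Dnajc genes, bring them clients and stimulate hydrolysis, while Bag and Hsp110 proteins release the nucleotide. Hsp90 acts later on kinases and steroid receptors, the Cct ring folds actin and tubulin, and small heat shock proteins hold clients without ATP. Under stress the transcription factor Hsf1 raises many of these genes through heat shock elements in their promoters. Neurons also use the system at the synapse, where Dnajc5 sits on synaptic vesicles and Dnajc6 helps to strip clathrin from them.

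RNA of 2 mice was sequenced, and the libraries are named by their titles, miR-7KD and WT. Both mice were of the C57BL/6J strain and 6 to 8 weeks old by the labels, whereas the study's methods give 8 to 10 weeks. Both received LPS, the endotoxin of Gram-negative bacteria and a strong trigger of inflammation, by intraperitoneal injection at 2.5 mg/kg, and brain tissue was collected after 12 h. LPS is named in the study's methods and not in the labels. The animal titled miR-7KD belongs by its title to the miR-7 deficient line, in which the microRNA miR-7 is reduced. The sources used here do not give how that line was made. The genotype fields run the other way, with wild type for the sample titled miR-7KD and miR-7 KD for the sample titled WT. The descriptions call each sample representative of 3 replicates, follow the genotype fields in naming them, and call both mice wild type. Which mouse had which genotype is therefore not settled. No miR-7 locus is among the protein-coding genes, so the titles could not be checked by the targeted gene. Directions below run from the WT-titled library to the miR-7KD-titled library, so that "higher" means higher in the latter, and paired values give the miR-7KD-titled library before the WT-titled library.

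Levels are in FPKM, fragments counted per kilobase of transcript and scaled to library size. Gene values of the group were mostly below the sum of their listed transcripts in both libraries (55 of 74). Comparisons of level between genes are therefore rough. FPKM summed to 164811 and 162981 over all genes, with medians of 4.69 and 4.63. The sources used here give no read counts, so counting error is unknown. Each title had a library of its own and no replicate, so no test was made and each difference is one between these libraries. The log2 ratio was taken after adding 0.1 FPKM to both values, for genes that reached 1 FPKM in either library, and a gene was called different at 2-fold or more. Markers of neurons, astrocytes, oligodendrocytes, microglia, endothelium, ependyma and blood were all listed, none was 2-fold different, and the list medians lay between -0.12 and 0.30 on the log2 scale. None of the 6 photoreceptor genes was listed, although retinas stand in the extraction text of the labels. In whole tissue, fewer cells of a type and less RNA per cell cannot be told apart.

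The summed level of the group was close to the same in both libraries. Over all 74 genes, Hspg2 included, it reached 2060 and 2084 FPKM, which was 1.25% and 1.28% of the gene table. The most abundant genes weigh most in this sum, and the 3 Hsp90 genes alone gave 727 and 736 FPKM of it. Of the 74 genes, 71 passed 1 FPKM. Among these, 5 were at least 2-fold higher (Bag4, Bag5, Dnajb3, Dnajb14 and Hspa13) and 1 was at least 2-fold lower (Dnajc5). That is 8.45% of the group, beside 11.6% of the 11969 genes that passed the same level, of which 6.01% were higher and 5.58% lower. The share in the group did not exceed the share among all genes. The median log2 ratio was -0.02, beside -0.01 over all genes. The median size of the log2 ratio, whatever its sign, was 0.12 in the group and 0.188 over all genes. Within 0.25 of equality on the log2 scale lay 50 of the 71 genes, or 70.4%, beside 58.8% of all genes. Across the 71 genes, levels in the libraries correlated with a Pearson r of 0.943 on log10(FPKM + 1) and a Spearman rho of 0.932, and with 0.989 and 0.986 across the 65 genes under 2-fold. Genes of a library share its depth and are not independent replicates, so these values describe the pair of libraries.

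**Figure D1:**
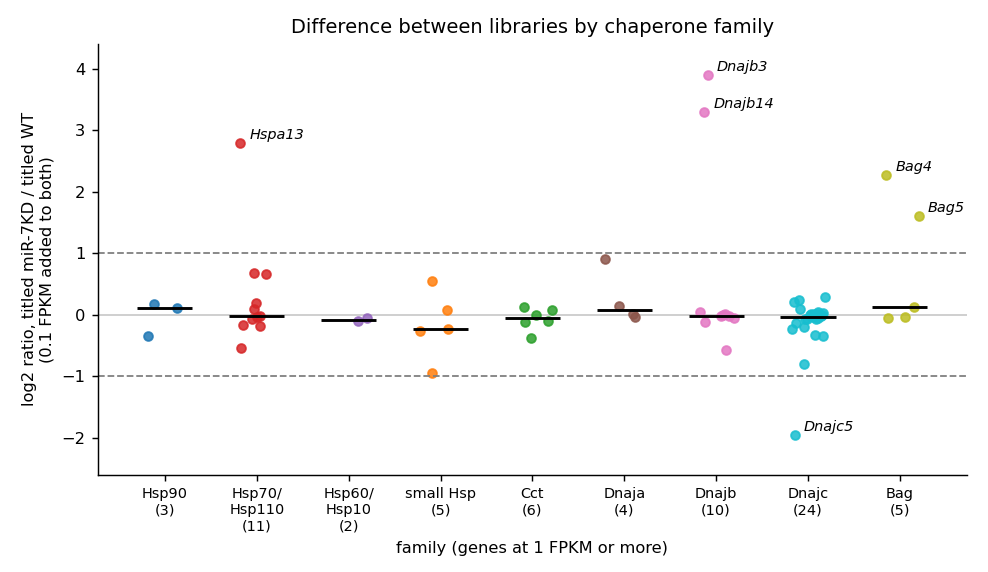
Log2 ratio of the miR-7KD-titled library to the WT-titled library (vertical axis, 0.1 FPKM added to both) for the genes at 1 FPKM or more of each chaperone family (horizontal axis, number of genes in brackets). Points are genes, bars are family medians and dashed lines mark 2-fold. Hspg2 is not plotted, the family medians lie between -0.24 and 0.12, and the 6 named genes lie beyond 2-fold.

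The core machines held the highest levels. Hsp90ab1, the constitutive cytosolic Hsp90, ranked 12th of the table by mean gene value, at 429 and 381 FPKM (log2 ratio 0.17). Its stress-inducible partner Hsp90aa1 was at 229 and 291 FPKM (log2 ratio -0.34). Hsp90b1, the Hsp90 of the endoplasmic reticulum, was at 68.6 and 63.8 FPKM (log2 ratio 0.10). None of the 3 Hsp90 genes reached 2-fold, and the cytosolic pair lay on opposite sides of equality.

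Hspa8, the constitutive cytosolic Hsp70, was at 188 and 193 FPKM. Hspa5, the BiP chaperone of the endoplasmic reticulum, was at 45.3 and 47.5 FPKM. Hspa9, the mitochondrial Hsp70, was at 39.98 and 37.51 FPKM. These abundant Hsp70 genes, 1 for each compartment, lay within 0.1 of equality on the log2 scale. Hspa2, an Hsp70 best known for its role in spermatogenesis, was at 13.9 and 15.7 FPKM. The distant members Hspa12a and Hspa12b were at 8.95 and 10.2 FPKM and at 0.823 and 0.928 FPKM, the last under the level for a call. The family of Hsp70 and Hsp110 had 11 genes above that level, with 1 higher, none lower and a median log2 ratio of -0.02.

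The Hsp110 genes, whose proteins exchange nucleotide on Hsp70, did not share a direction. Hspa4 was at 34.9 and 22.1 FPKM (log2 ratio 0.66), its relative Hspa4l at 7.72 and 11.2 FPKM (log2 ratio -0.54), and Hsph1 at 29.2 and 29.6 FPKM (log2 ratio -0.02). All stayed under 2-fold, with Hspa4 and Hspa4l in opposite directions.

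Hspa14, a ribosome-associated Hsp70, was listed under ENSMUSG00000109865.1 at 7.67 and 6.71 FPKM and under ENSMUSG00000051396.15 at 1.86 and 1.13 FPKM. The second is named Gm45902 in GENCODE M21. The spans of the entries share 8264 bases on the same strand, introns included, so reads from shared sequence may not have been separated.

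**Figure D2:**
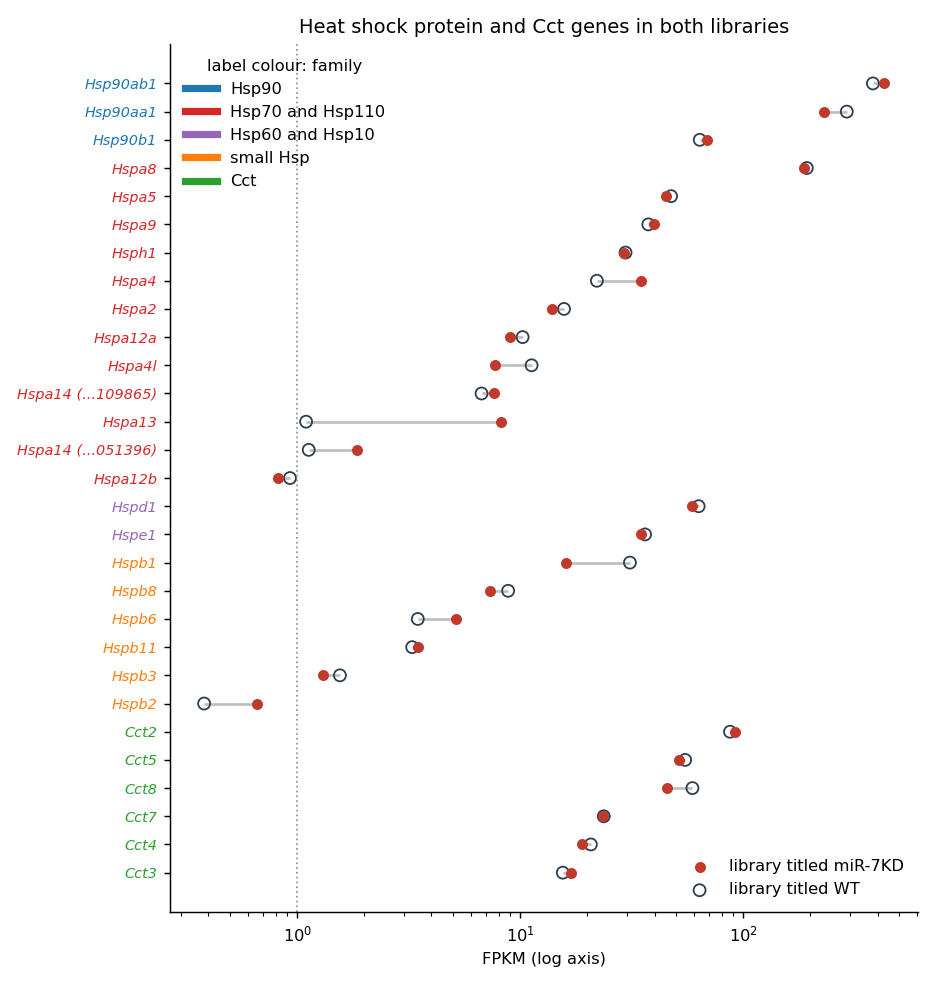
FPKM (horizontal log axis) of each heat shock protein and Cct gene (vertical axis, label colour by family, both Hspa14 entries marked by the end of their identifier) in the miR-7KD-titled library (filled) and the WT-titled library (open), joined by a line. The dotted line marks 1 FPKM. Levels run from 0.383 FPKM (Hspb2) to 429 FPKM (Hsp90ab1), and Hspa13 has the longest line, from 1.10 to 8.19 FPKM.

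Hspa13 was the only heat shock protein gene beyond 2-fold among the 21 of 23 that passed 1 FPKM. It encodes Stch, a short Hsp70-like ATPase of microsomes that lacks the substrate-binding part. Its level was 8.19 FPKM in the miR-7KD-titled library and 1.10 FPKM in the WT-titled library, a 7.47-fold difference (log2 ratio 2.79). The gene lies at chr16:75755190-75766821 on the minus strand of GRCm38. Its listed transcript was at 11.5 and 1.37 FPKM. An unannotated transcript of 6 exons on the same strand, from 75755189 to 75766800, was at 2.63 and 1.12 FPKM, and adding it gave a log2 ratio of 2.24. The gene was higher in the miR-7KD-titled library by each of these values.

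The mitochondrial pair Hspd1 and Hspe1 encodes Hsp60 and its lid Hsp10. Hspd1 was at 58.7 and 63.1 FPKM and Hspe1 at 34.8 and 36.3 FPKM, so both lay within 0.11 of equality on the log2 scale. An unannotated 12-exon transcript over Hspd1 was at 23.0 and 51.1 FPKM. With it, Hspd1 came to 81.8 and 114 FPKM (log2 ratio -0.48).

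Among small heat shock proteins, Hspb1 (Hsp25 in the mouse), an inducible chaperone that also stabilises actin, was at 16.0 and 31.0 FPKM. Its log2 ratio of -0.95 lay just under the 2-fold mark. Hspb8, which works with Bag3 in selective autophagy, was at 7.30 and 8.82 FPKM, and Hspb6 was at 5.13 and 3.47 FPKM (log2 ratio 0.55). Hspb11, a subunit of the intraflagellar transport complex, was at 3.48 and 3.28 FPKM. The muscle-enriched Hspb3 was at 1.30 and 1.55 FPKM. Its relative Hspb2 was at 0.660 and 0.383 FPKM, under the level for a call, and overlaps Cryab on the opposite strand by 1030 bases. None of the 5 small heat shock protein genes above 1 FPKM reached 2-fold, 3 were lower and 2 higher, and the median log2 ratio was -0.24.

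The 6 Cct genes, subunits of the ring that folds actin and tubulin, gave a median log2 ratio of -0.05. Cct2 was at 91.8 and 87.2 FPKM, Cct5 at 51.3 and 54.9 FPKM and Cct7 at 23.5 and 23.7 FPKM. Cct4 was at 19.0 and 20.7 FPKM and Cct3 at 16.9 and 15.5 FPKM. By gene value Cct8 stood farthest from equality, at 45.5 and 59.1 FPKM (log2 ratio -0.38). By the sum of listed transcripts Cct3 stood farther, at a log2 ratio of 0.92 beside -0.58 for Cct8. With unannotated transcripts added to gene values, Cct2 stood farther, at 0.54 beside -0.38 for Cct8. Although the subunits enter the ring in equal numbers, their gene values spanned 16.9 to 91.8 FPKM in the miR-7KD-titled library and 15.5 to 87.2 FPKM in the WT-titled library. The span depends on how gene values were made. Sums of listed transcripts ran from 42.0 FPKM (Cct4) to 91.8 FPKM (Cct2) in the miR-7KD-titled library. In the WT-titled library they ran from 28.2 FPKM (Cct3) to 87.2 FPKM (Cct2). Tcp1, which encodes the first subunit of the same ring under another name, was at 36.2 and 30.6 FPKM.

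The Bag genes encode proteins that bind the ATPase part of Hsp70. Bag1 was at 51.8 and 53.6 FPKM, Bag6, which guards membrane proteins on their way to the endoplasmic reticulum, at 30.6 and 31.5 FPKM, and Bag3, the stress-inducible autophagy partner, at 4.89 and 4.49 FPKM. These 3 lay within 0.12 of equality on the log2 scale. Bag2, an inhibitor of the ubiquitin ligase Chip, was at 0.524 and 0.895 FPKM, under the level for a call. The other Bag genes, Bag4 and Bag5, were both at least 2-fold higher, and the family median was 0.12.

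Bag4, the silencer of death domains, is known to bind the receptor of tumour necrosis factor and hold it inactive. It was at 13.01 and 2.61 FPKM, a 4.99-fold difference (log2 ratio 2.28). The gene lies at chr8:25764538-25785287 on the minus strand, and its only listed transcript was at 18.8 and 3.75 FPKM. Gene and transcript were higher in the miR-7KD-titled library.

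Bag5 carries several Bag domains and is known in neurons as a partner of Hsp70. It was at 4.79 and 1.502 FPKM, a 3.19-fold difference (log2 ratio 1.61), at chr12:111709488-111713257 on the minus strand. Both listed transcripts were higher, at 4.84 and 1.38 FPKM and at 0.891 and 0.437 FPKM. However, an unannotated transcript of 3 exons and 3509 bases spans the gene on the same strand, from 111708776 to 111713935. It was listed at 0 in the miR-7KD-titled library and at 5.89 FPKM in the WT-titled library. With it, Bag5 came to 4.79 and 7.39 FPKM, and the direction turned to a log2 ratio of -0.61. The call for Bag5 thus holds for annotated transcripts only.

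J-domain genes made up the rest, 38 in all, of which 2 were at least 2-fold higher and 1 lower. Dnaja genes encode the forms nearest to bacterial DnaJ. Dnaja1 was at 26.8 and 27.5 FPKM and the mitochondrial Dnaja3 at 15.0 and 15.0 FPKM. Dnaja2 was at 58.1 and 31.0 FPKM (log2 ratio 0.90), just under the 2-fold mark. Of the Dnajb genes, Dnajb6, known to suppress aggregation of polyglutamine proteins, was at 16.2 and 17.7 FPKM, Dnajb11 of the endoplasmic reticulum at 15.2 and 15.3 FPKM, and Dnajb5 at 13.5 and 13.3 FPKM. The stress-inducible Dnajb1 was at 6.57 and 6.38 FPKM, and Dnajb9, a target of the unfolded protein response, at 3.72 and 3.77 FPKM. Of the Dnajc genes, Dnajc6 (auxilin) was at 44.6 and 46.5 FPKM, Dnajc8 at 33.8 and 33.4 FPKM and Dnajc7, a partner of both Hsp70 and Hsp90, at 26.6 and 25.7 FPKM. Family medians were 0.07 for Dnaja, -0.02 for Dnajb and -0.04 for Dnajc, and the lowest Dnajc gene under 2-fold was Dnajc28 at 0.760 and 1.40 FPKM (log2 ratio -0.80).

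Dnajb14, a J-domain protein of the endoplasmic reticulum membrane, was at 9.58 and 0.885 FPKM, a 10.8-fold difference (log2 ratio 3.30). This was the largest ratio of the group among genes with a value above 0 in both libraries. The gene lies at chr3:137867675-137916557 on the plus strand, and its listed transcript, with a 3′-UTR of 8088 bases, was at 15.7 and 1.26 FPKM. Dnajb3 was at 1.40 FPKM in the miR-7KD-titled library and listed at 0 in the WT-titled library, so no fold is given. It has 1 exon, at chr1:88204732-88205782 on the minus strand, and lies within 8 Ugt1a genes of the opposite strand. The sources used here do not say whether the authors' counting used strand, so reads of Dnajb3 and of the Ugt1a genes may not have been separated.

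Dnajc5 was the only chaperone gene at least 2-fold lower. It encodes cysteine string protein, which with Hspa8 keeps SNARE proteins folded at the synapse. It was at 9.59 FPKM in the miR-7KD-titled library and 37.5 FPKM in the WT-titled library, which was 3.91-fold higher in the latter (log2 ratio -1.96). Hspa8 and Dnajc6, which act at the same vesicles, were within 0.1 of equality on the log2 scale. Dnajc5 lies at chr2:181520485-181555133 on the plus strand. Its transcripts did not run together. Dnajc5-001, with a 3′-UTR of 5757 bases, was at 6.89 and 37.99 FPKM, whereas Dnajc5-003, with a 3′-UTR of 2856 bases, was at 2.90 and 1.21 FPKM. The form with the longer 3′-UTR was the lower in the miR-7KD-titled library, and the form with the shorter 3′-UTR the higher.

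Since the study is about miR-7, 3′-UTRs of the group were read for its site. The mature sequences, from RefSeq (GRCm38.p6), are shown because both share the seed, bases 2 to 8, in capitals. The first is made from loci on chromosomes 13 and 7, the second from a locus on chromosome 17.
mmu-miR-7a-5p: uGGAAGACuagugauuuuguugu
mmu-miR-7b-5p: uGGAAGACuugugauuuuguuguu

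The sequence complementary to this seed, GTCTTCC, stood in the longest annotated 3′-UTR of 11 of 71 genes, or 15.5%, beside 14.2% of 11883 genes at 1 FPKM or more with an annotated 3′-UTR. They were Cct4, Dnaja1, Dnajc1, Dnajc3, Dnajc5, Dnajc10, Dnajc13, Dnajc15, Dnajc27, Hspa4 and Hspa4l. Dnajc15 holds it in a 3′-UTR of a transcript without a value here. Counting instead the 3′-UTR of any transcript with a value gave 12 genes, without Dnajc15 and with Dnajb11 and Dnajc19, whose log2 ratios were -0.01 and 0.20. Of the 11, none was at least 2-fold higher and 1 was lower, beside 11.6% of all genes at 1 FPKM or more that were 2-fold different in either direction. That share was not counted among all genes with the site, here or for the shorter site below. The median log2 ratio was -0.04 with the site and -0.02 without it, beside -0.02 and -0.01 over all genes. None of the 5 genes that were at least 2-fold higher holds the site, which 14.2% of all genes hold. Dnajc5, the gene that was lower, holds it 3 times, and the last of these lies beyond the end of the shorter 3′-UTR. The sites with 8 bases on each side are shown for Dnajc5 and, because they differed in opposite directions, for the relatives Hspa4 and Hspa4l. Capitals mark the match.
Dnajc5, chr2:181549893-181549899, plus strand: tgggccccGTCTTCCaggcacca
Dnajc5, chr2:181551985-181551991, plus strand: ctttccttGTCTTCCttttgact
Dnajc5, chr2:181554396-181554402, plus strand: tctatataGTCTTCCtgggtgtg
Hspa4, chr11:53261066-53261072, minus strand: ccagcccaGTCTTCCtcctccat
Hspa4l, chr3:40795619-40795625, plus strand: ggtaaacaGTCTTCCagtcatct
The shorter TCTTCC, complementary to bases 2 to 7 of the microRNA, stood in 30 of the 71 genes, or 42.3%, beside 47.3% of all genes. Of these 30, 2 were at least 2-fold higher (Dnajb14 and Hspa13) and 1 lower (Dnajc5), with a median log2 ratio of -0.001 with the shorter site and -0.04 without it. A match of letters is not a shown site of binding.

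Promoters were read for the heat shock element, the motif bound by Hsf1. The window ran from 250 bases before to 50 bases after the start of the RefSeq gene, and 60 symbols of the group had at least 1 such window, 80 in all because some have several starts. The element searched, on both strands, was GAA, any 2 bases, TTC, any 2 bases, GAA. It was found in 4 of the 60, or 6.67%, beside 0.567% of 9171 genes at 1 FPKM or more and 0.597% of all 32851 promoters of the RefSeq set. Hspd1 and Hspe1 face away from each other and share 1 stretch, in which overlapping matches lie on both strands. Counted by stretch, the 4 genes hold the motif at 3 places. For Hspd1 and Hspe1 the match on the gene's own strand is shown. The stretches are shown on the strand of each gene with the motif's fixed bases in capitals. In Hsph1 the motif lies only on the other strand, so it reads as TTC, GAA and TTC.
Dnajb6, chr5:29735846-29735870, plus strand: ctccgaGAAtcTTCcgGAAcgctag
Hspd1, chr1:55088053-55088077, minus strand: cttccgGAAggTTCtaGAAcggacc
Hspe1, chr1:55088058-55088082, plus strand: gttctaGAAccTTCcgGAAggcccc
Hsph1, chr5:149636282-149636306, minus strand: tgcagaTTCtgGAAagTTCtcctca
The levels of these 4 genes were within 0.13 of equality on the log2 scale. The shorter form, GAA, any 2 bases, TTC, which lies within the longer, stood in 12 of the 60, or 20%, beside 6.72% of the genes at 1 FPKM or more and 7.80% of all promoters. The 12 were Cct2, Dnaja1, Dnaja4, Dnajb6, Dnajc27, Hspb1, Hspb3, Hspb6, Hspb8, Hspd1, Hspe1 and Hsph1. Dnaja4 and Hspb1 hold it at 2 places each, with log2 ratios of 0.14 and -0.95, and Hspb6 holds it once with a log2 ratio of 0.55. The places in Hspb1 are shown because they lie close to each other.
Hspb1, chr5:135887796-135887815, plus strand: acaagaGAAgtTTCcagatg
Hspb1, chr5:135887816-135887835, plus strand: ggggcaGAAccTTCctggcc
Promoters of 3 of the 6 genes beyond 2-fold were read (Bag5, Dnajb3 and Dnajb14), and none of these held either motif in the window.

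Transcript values were less even than gene values. For the 74 genes 147 transcripts were listed and 130 reached 1 FPKM. Of these, 16 were at least 2-fold higher and 10 lower, which is 20% beside 24.3% of all 18988 transcripts that reached 1 FPKM (12% higher and 12.2% lower). They belonged to 19 genes, and 13 of these genes stayed under 2-fold in the gene table. Bag6, Cct3 and Dnajc5 had transcripts beyond 2-fold in both directions. These counts of genes were not taken over the whole table and are not read as a trait of the group. For Cct3, Cct3-001 was at 51.3 and 8.50 FPKM, Cct3-005 was listed at 0 and at 13.01 FPKM, and Cct3-006 was at 2.30 and 6.73 FPKM. The sum of these was 53.6 and 28.2 FPKM (log2 ratio 0.92), whereas the gene value gave a log2 ratio of 0.12. For Bag6, Bag6-005 was at 14.3 and 2.95 FPKM and Bag6-201 at 9.29 and 27.7 FPKM. Hsp90aa1-002 was beyond 2-fold, at 69.8 and 33.9 FPKM, while the more abundant Hsp90aa1-001 was not, at 211 and 316 FPKM (log2 ratio -0.58). Hsph1-002 was listed at 0 and at 10.1 FPKM, beside 34.5 and 27.8 FPKM for Hsph1-001. In 55 of the 74 genes the gene value was below the sum of its transcripts in both libraries, and the sources used here do not say how gene values were made.

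Unannotated transcripts lay on the same strand over 23 of the genes, 32 entries in all. Of these, 10 were at least 2-fold higher and 7 lower, or 53.1% beside 54.4% of all 10238 unannotated transcripts, of which 30.3% were higher and 24.1% lower. Over Cct2, an unannotated 16-exon transcript was at 36.9 and 1.40 FPKM, and adding it took Cct2 from a log2 ratio of 0.07 to 0.54. Over Dnajb4, a J-domain partner of Hsp70, an unannotated 4-exon transcript of 8978 bases was at 0.107 and 6.25 FPKM. With the latter, Dnajb4 went from a log2 ratio of -0.57 to -1.72. Entries over Dnajc6 and Dnajc7 were at 28.7 and 10.6 FPKM and at 0.903 and 10.9 FPKM, and brought their log2 ratios from -0.06 to 0.36 and from 0.05 to -0.41. The second Hspa14 entry went from 0.68 to -0.26 and the first from 0.19 to -0.09. The same 13-exon transcript, at 2.68 and 4.34 FPKM, was added to both. It runs from 3488866 to 3512881, close to the span of the first entry (3488850 to 3512814). The second entry spans only 3504527 to 3512790, so crediting the transcript to it is uncertain.

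**Figure D3:**
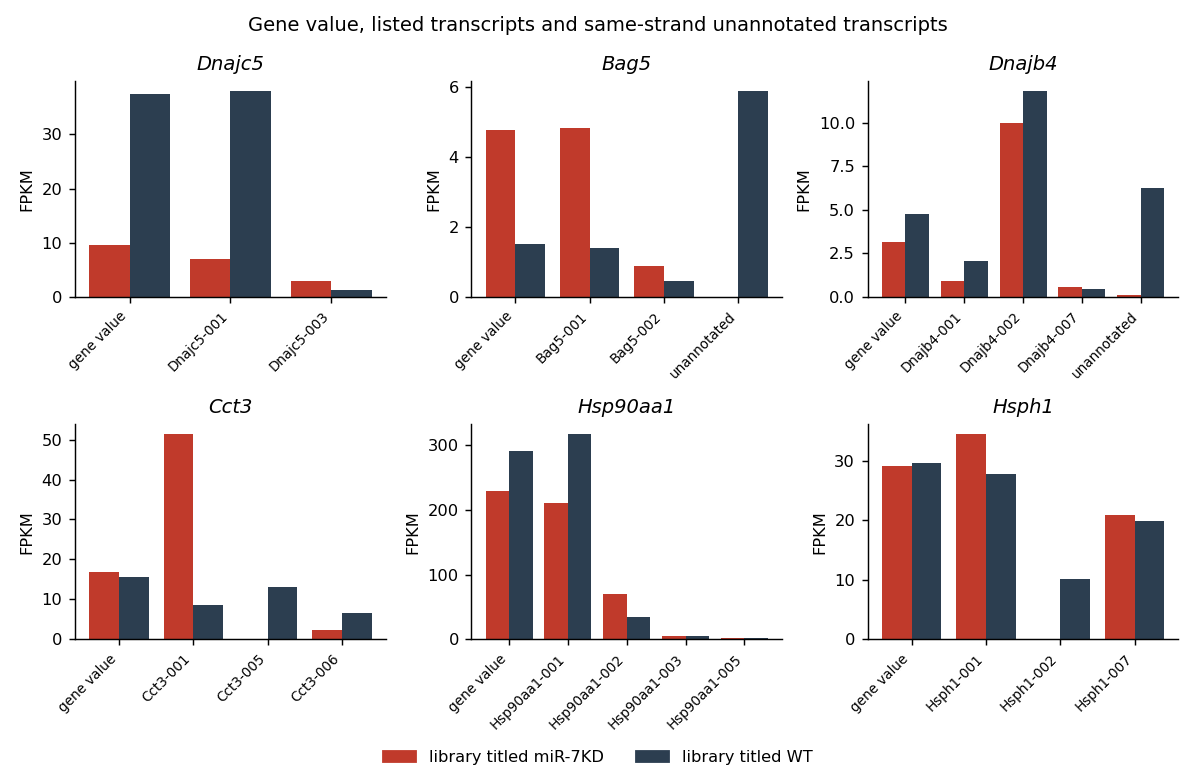
FPKM (vertical axis, from 0) of the gene value, each listed transcript and any same-strand unannotated transcript for 6 chaperone genes, in the miR-7KD-titled library (red) and the WT-titled library (dark blue). There is 1 library per title and so no error bar. Gene values of Cct3 and Hsph1 are close to equal, whereas the Cct3 transcripts sum to 53.6 and 28.2 FPKM and Cct3-005 and Hsph1-002 are listed at 0 in the miR-7KD-titled library, and the unannotated transcript over Bag5 is at 0 and 5.89 FPKM.

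The 6 genes beyond 2-fold had 1 to 8 exons, counted as the largest number in any annotated transcript, while the 65 genes under 2-fold had a median of 10. By class, 2 of 10 genes with 1 to 3 exons were 2-fold different (20%, beside 35.4% of all such genes), as were 4 of 21 with 4 to 8 exons (19.0%, beside 14.8%). None of the 20 with 9 to 12 exons (beside 7.57%) and none of the 20 with 13 or more exons (beside 3.43%) was. Few exons and a difference beyond 2-fold went together in the whole table too. The longest 3′-UTR had a median of 966 bases in the genes under 2-fold, whereas Dnajb14, Dnajc5, Bag4 and Hspa13 had 8088, 5757, 3386 and 2759 bases and Bag5 and Dnajb3 had 556 and 218. With 3′-UTRs of 4000 bases or more, 2 of 6 genes of the group and 19.1% of all genes were 2-fold different, beside 2 of 35 and 7.96% with under 1000 bases. The part of exon number and 3′-UTR length in these differences was not tested.

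**Figure D4:**
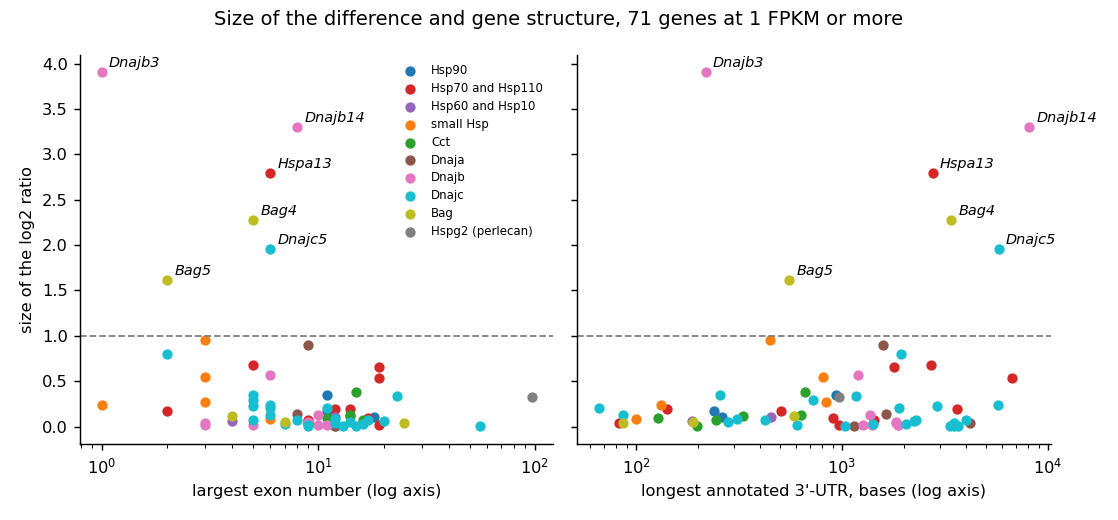
Size of the log2 ratio (vertical axis) against the largest exon number (left, log axis) and the longest annotated 3′-UTR in bases (right, log axis) for the 71 genes at 1 FPKM or more, coloured by family. The dashed line marks 2-fold. Every gene above the line has 8 exons or fewer, and 4 of the 6 have a 3′-UTR above 2000 bases.

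Other genes of the chaperone network, whose symbols fall outside the naming series, were read as a list of 51, of which 49 had values and 48 reached 1 FPKM. Of these, 2 were at least 2-fold higher and 1 lower, or 6.25%, beside the 11.6% of all genes, and the median log2 ratio was -0.03. Fkbp5, an Hsp90 co-chaperone of steroid receptors that glucocorticoids are known to induce, was at 27.3 and 12.04 FPKM (log2 ratio 1.17). Canx, which encodes the lectin chaperone calnexin, was at 80.1 and 39.8 FPKM (log2 ratio 1.01). Hsf2, a heat shock transcription factor, was at 5.77 and 11.7 FPKM (log2 ratio -1.01). The calls for Canx and Hsf2 lay at the 2-fold mark and were lost with 1 FPKM added in place of 0.1. Hsf1 itself was at 7.57 and 8.74 FPKM (log2 ratio -0.21). The abundant Calr, Pfdn5, Ptges3 and Stip1, which encode calreticulin, a prefoldin subunit, p23 and Hop, were at 94.5 and 90.0, 71.5 and 73.2, 64.6 and 61.1, and 66.7 and 55.2 FPKM. Ahsa1, an activator of the Hsp90 ATPase, was at 43.7 and 74.6 FPKM (log2 ratio -0.77), and Cryab, a small heat shock protein outside the Hspb names, at 32.02 and 33.89 FPKM.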

How the data were processed

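Brain RNA of 2 mice, 1 library per title, was analysed from the FPKM tables the authors deposited for protein-coding genes, their transcripts and unannotated transcripts. Bowtie 0.12.2 and the build mm8 are named in the submitters' processing notes. The positions are those of GRCm38, since 13362 of 13381 genes overlap the GENCODE M21 gene of the same identifier. The sources used here do not name the FPKM program. The study's methods speak of an array. No listed gene had a maximum below 0.501 FPKM and no listed unannotated transcript below 1.00 FPKM, so lower ones are not seen. The table of unannotated genes was not used.

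Genes were chosen by symbol. The log2 ratio was taken with 0.1 added to both FPKM values, which makes ratios of low genes too small, for genes that reached 1 FPKM in either library, and 2-fold was the threshold. An exact 0 is given as listed at 0. Unannotated transcripts were added to every gene they overlap on the same strand, so 1 that overlaps both Hspa14 entries was added to each. 3′-UTRs and exons came from GENCODE M21, promoters and miR-7 from RefSeq (GRCm38.p6). No table of proteins was used here. Alternatives were a pseudocount of 0.01 or 1, no minimum level or one of 5 FPKM, a 3-fold threshold, a median log2 ratio set to 0, genes at 0 left out, the sum of transcripts and the addition of unannotated transcripts. Only the rule that calls a gene 2-fold different was tested on simulated data, for genes at 5 FPKM or more. The steps for motifs, 3′-UTRs and unannotated transcripts were not tested in this way.

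The members, lists and alternatives were chosen with earlier results of these data known. The rule for named genes took each gene at least 2-fold different, all genes of the Hsp, Cct and Bag families, the 3 most abundant of each Dnaj class and, of the other chaperone genes, those 2-fold different and the 4 most abundant. Dnajb1, Dnajb4, Dnajb9, Dnajc28, Hsf1, Tcp1, Ahsa1, Cryab and genes named for a motif or site fall outside it and were chosen after their values were seen. The software was matplotlib 3.10.9, scipy 1.17.1, pandas 2.3.3 and numpy 2.4.6 under Python 3.11.15.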

Additional observations from a re-analysis of the deposited data

How the results depend on the processing

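No paired analysis was possible because each title has 1 library, and for the same reason no replicate could be left out. Of 452 values of the 51 named genes with a ratio under the alternatives, 445 stayed on the same side of 2-fold and 11 changed sign. Bag5 turned to a log2 ratio of -0.61 when the unannotated transcript was added. The other 10 changes of sign were under 2-fold in both settings, 6 of them within 0.25 of 0. The rest were Bag6 (0.31), Dnajc6 (0.36), Dnajc7 (-0.41) and the second Hspa14 entry (-0.26), all with unannotated transcripts added. The transcript added to the second Hspa14 entry was also added to the first, whose span it matches more closely. Canx and Hsf2 fell under the threshold with a pseudocount of 1 (0.99 and -0.91), Hsf2 with unannotated transcripts added (-0.81), and Canx, Fkbp5 and Hsf2 at 3-fold.

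Of the chaperone genes, 5 were higher under both other pseudocounts, with no minimum level, with the median set to 0 and at 3-fold. With a minimum of 5 FPKM 3 were higher, with genes at 0 left out or unannotated transcripts added 4, and with transcripts summed 6, the added gene being Dnajc25. Of them, 2 were lower with transcripts summed (Bag2 added) and with unannotated transcripts added (Dnajb4 added). Counting each transcript on its own, an alternative chosen after seeing the data, gave 16 higher and 10 lower. Over all genes, 519 were higher and 479 lower with a pseudocount of 1, 421 were higher and 390 lower with a minimum of 5 FPKM, and 392 and 367 at 3-fold. Among the other chaperone genes, 1 was higher and 0 lower with a pseudocount of 1, 0 and 0 at 3-fold, 2 lower with no minimum level and 0 lower with unannotated transcripts added. The median of the small heat shock proteins was -0.079 with no minimum level, that of the Bag genes -0.042 with a minimum of 5 FPKM, and those of Hsp60 with Hsp10 and of Dnaja -0.27 and 0.35 with unannotated transcripts added. Heat shock element matches went from 4 to 12 genes with the shorter motif, and miR-7 seed matches from 11 to 30 with bases 2 to 7 and to 12 in any transcript with a value, both also chosen after seeing the data. Depth is not known, so the precision of low values, such as those of Dnajb3 and of Dnajb14 in the WT-titled library, cannot be given.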
